A study of Mus musculus with 6 samples.

Results

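The cytochrome P450 genes were examined in livers of floxed control mice and of mice lacking Fgf18 in hepatic stellate cells, all after hepatic ischemia-reperfusion. They were taken as the protein-coding genes of the deposited table whose symbol starts with Cyp and a number, which gave 29 of the 3201 listed genes. By family number, 21 of them belong to families 1 to 3, which mainly oxidise drugs and other foreign compounds (called xenobiotic families here), and 8 to family 4 and above, which mainly act on the body's own sterols, fatty acids, retinoids and steroids (called endogenous families here). The GENCODE annotation of the same genome holds 100 protein-coding P450 genes, 61 in the xenobiotic and 39 in the endogenous families. The P450 genes without a row in the table were not analysed here.

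RNA-seq was made from the livers of 3 Fgf18 f/f mice, labelled IR and called controls here, and 3 Fgf18 ΔHSC mice, labelled 18KO. Both groups were male mice on a C57BL/6 background that underwent surgery with 70% partial warm ischemia for 1 h and reperfusion for 6 h, so that no liver without surgery is part of the comparison. The Fgf18 f/f mice carry the floxed alleles, and in the Fgf18 ΔHSC mice Cre under the GFAP promoter removes Fgf18 from hepatic stellate cells, the vitamin A-storing cells of the sinusoid. The label of the first group names the treatment where the genotype should stand, and the genotype was taken from the study's text. Fgf18 itself was not analysed here, so the genotypes could not be checked in these values, and the ages of the animals were not given in the sources used here. The values are taken as TPM (a read count relative to gene length, with every library brought to one common total), since the unit is not written in the table. A read on 1 kb of gene was worth 0.0374 to 0.0655 TPM, and library totals were not given in the sources used here.

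P450 enzymes are heme proteins of the endoplasmic reticulum or mitochondria that insert oxygen into their substrates with electrons passed on from a reductase. In the liver, hepatocytes hold most of them, with several of the most abundant ones concentrated around the central vein. Nuclear receptors that sense drugs, bile acids and fatty acids regulate their transcription, and the levels of many are known to fall during inflammation of the liver.

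The table holds only genes that already differed between these same 6 livers in the authors' comparison, with an absolute log2 fold change of at least 1 and an unadjusted p under 0.05. The counts below therefore describe the listed genes and are no independent evidence of a difference. Differences were fitted with limma on log2(TPM + 0.1) across the whole table, and a gene counts as called where the Benjamini-Hochberg adjusted p was under 0.05 and the absolute log2 difference was above 1. With 3 livers a group the p-values measure the spread among these livers alone, with each gene's spread drawn by limma toward that of the other listed genes. The adjustment covers only listed genes, already selected for a difference, so the adjusted p-values are no independent evidence either. The added 0.1 TPM makes the fitted difference of low genes smaller than their ratio.

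Of the 29 P450 genes 21 were called lower in the Fgf18 ΔHSC livers (72.4%), against 30.0% of all listed genes, and 5 were called higher (17.2%), against 41.6% of all listed genes. In either direction 71.7% of the listed genes were called. All 21 P450 genes with a lower level passed the call, as did 86.0% of the listed genes with a lower level, and 5 of the 8 with a higher level passed, as did 64.0% of those listed. The median log2 difference of the 29 P450 genes was -1.12, and that of all listed genes was 0.88. In the xenobiotic families 16 genes were called lower and 4 higher, with a median of -1.12, and in the endogenous families 5 were called lower and 1 higher, with a median of -1.08. In each of the 29 genes the 3 values of one group lay wholly above those of the other, as they did in 96.3% of the listed genes. Whether the xenobiotic and endogenous families differed from each other was not tested.

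**Figure D1:**
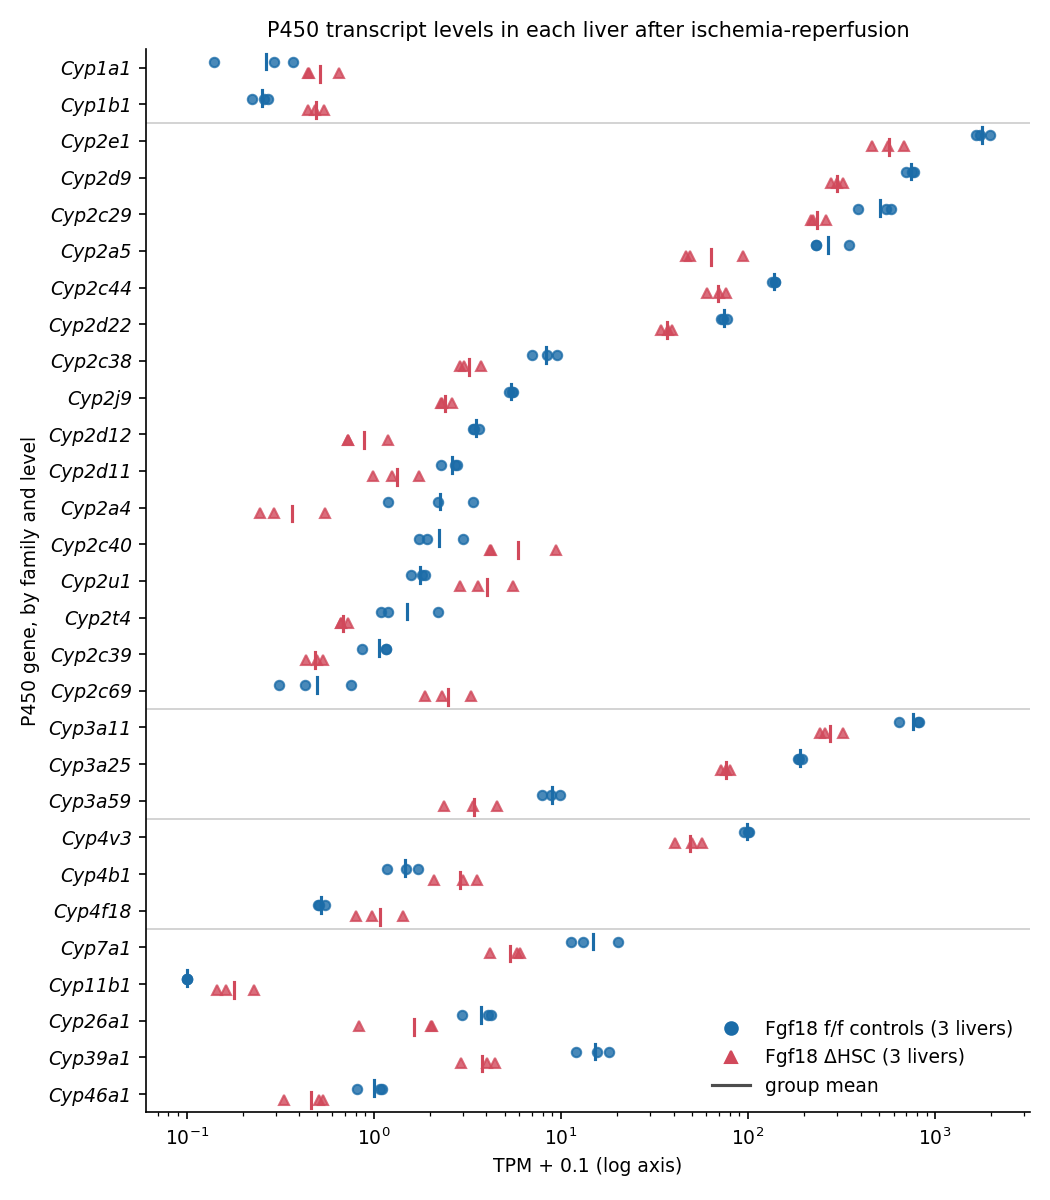
Levels of the 29 P450 genes in each liver, as TPM + 0.1 on a log axis, in order of family and of level within a family, with circles for the 3 control livers, triangles for the 3 Fgf18 ΔHSC livers and short bars for the group means. The groups are apart for every gene, the abundant genes lie lower in the Fgf18 ΔHSC livers, and the 8 genes that lie higher are all at or below 2.12 TPM on average in the control livers.

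The transcripts of the 29 listed P450 genes summed to 4613, 4629 and 4658 TPM in the control livers. In the Fgf18 ΔHSC livers the sums were 1567, 1972 and 1586 TPM, a ratio of the means of 2.71. P450 genes without a row are not in these sums, and the listed ones were selected for a difference. The sums and ratio are therefore no measure of total P450 RNA. The 21 listed genes of the xenobiotic families went from 4498 ± 25.2 TPM to 1644 ± 224 TPM (SD, n = 3 and 3). The 8 listed genes of the endogenous families went from 135 ± 2.80 TPM to 63.8 ± 6.17 TPM (SD, n = 3 and 3). The listed genes of the xenobiotic families thus held nearly all of the summed transcripts in both groups. Cyp2e1, Cyp3a11, Cyp2d9, Cyp2c29 and Cyp2a5 alone made up 87.4 to 87.8% of the sum in the control livers and 82.0 to 85.4% in the Fgf18 ΔHSC livers. The 8 genes with higher levels summed to 6.28 ± 1.10 TPM in the control livers and to 16.8 ± 3.80 TPM in the Fgf18 ΔHSC livers (SD, n = 3 and 3). In bulk tissue, fewer hepatocytes and less P450 RNA in each hepatocyte cannot be told apart.

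Cyp2e1, which oxidises ethanol, acetaminophen and other small molecules, was the most abundant of the listed P450 genes (chromosome 7, 140763739 to 140774987, GRCm38). It stood at 1744, 1660 and 1955 TPM in the control livers and at 461, 686 and 560 TPM in the Fgf18 ΔHSC livers. Every Fgf18 ΔHSC liver was far below the lowest control liver, with a log2 difference of -1.67 ± 0.16 (SE, limma adjusted p = 6.6e-05), a mean level 3.14-fold lower. Cyp2j9, an arachidonic acid epoxygenase, was lower by a smaller amount, with a log2 difference of -1.18 ± 0.13 (SE, limma adjusted p = 0.000103). Cyp2t4 had 1.40 ± 0.61 and 0.586 ± 0.0338 TPM (SD, n = 3 and 3), and without control liver 1 its log2 difference went from -1.06 to -0.74, inside the limit.

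The listed Cyp2a genes had the largest differences among the lower P450 genes on the log2(TPM + 0.1) scale. Cyp2a5, the coumarin hydroxylase of mouse liver (chromosome 7, 26835305 to 26843548), stood at 230, 231 and 345 TPM in the control livers and at 46.3, 94.2 and 48.9 TPM in the Fgf18 ΔHSC livers. The log2 difference was -2.14 ± 0.28 (SE, limma adjusted p = 0.000257), and Fgf18 ΔHSC liver 2 kept about 2 times the level of the other two. Cyp2a4, a steroid hydroxylase with higher expression in females (chromosome 7, 26307169 to 26315088), was far scarcer, at 3.29, 2.09 and 1.09 TPM against 0.194, 0.452 and 0.145 TPM. Its log2 difference was -2.60 ± 0.43 (SE, limma adjusted p = 0.000794). The coding sequences of the pair are 98.5% identical, so reads of the abundant Cyp2a5 may have been counted in Cyp2a4. Among the control livers the orders of the genes differed, with Cyp2a4 lowest and Cyp2a5 highest in liver 3.

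The promoters of the Cyp2a pair are shown because both genes fell and lie apart from each other in the same cluster. The 150 bases before each annotated start are printed 5′ to 3′ from RefSeq (GRCm38.p6), with CAAAGT, the core of the motif read by the liver factor HNF4A, in capitals. Both RefSeq starts lie just inside the GENCODE spans given above.
Cyp2a4 (chr7:26307042-26307191, plus strand): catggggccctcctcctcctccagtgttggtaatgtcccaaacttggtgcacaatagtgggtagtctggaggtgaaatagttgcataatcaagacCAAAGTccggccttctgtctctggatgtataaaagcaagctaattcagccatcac
Cyp2a5 (chr7:26835189-26835338, plus strand): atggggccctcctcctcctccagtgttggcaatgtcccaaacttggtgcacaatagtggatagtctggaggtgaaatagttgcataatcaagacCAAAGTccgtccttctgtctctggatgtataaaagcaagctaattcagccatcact
Over the full windows of 300 bases (250 before and 50 after the start) the promoters were 98.3% identical (294 of 299 bases), and the core lies 55 and 56 bases before the start. Both windows also hold TATAAA.

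In the Cyp2c subfamily, enzymes of drug oxidation and arachidonic acid epoxidation, 4 listed genes were lower and 2 were higher. Cyp2c29 stood at 547, 584 and 388 TPM in the control livers and at 223, 260 and 218 TPM in the Fgf18 ΔHSC livers, with a log2 difference of -1.10 ± 0.17 (SE, limma adjusted p = 0.000523). Without control liver 2 that difference was -0.98, just inside the limit. Cyp2c38 was at 8.31, 6.95 and 9.44 TPM against 2.81, 2.92 and 3.66 TPM, and its close copy Cyp2c39, 94.2% identical in coding sequence, at 1.07, 0.766 and 1.07 TPM against 0.398, 0.432 and 0.334 TPM. The log2 differences of these neighbours were -1.37 ± 0.17 and -1.12 ± 0.21 (SE, limma adjusted p = 0.000167 and 0.00141). Cyp2c44, an arachidonic acid epoxygenase named Cyp2c23 in the annotation, had 137 ± 2.97 and 68.9 ± 8.17 TPM (SD, n = 3 and 3). Its log2 difference of -1.0 stood at the limit, and was -0.99 without control liver 1, -0.99 without control liver 2 and -0.91 without Fgf18 ΔHSC liver 3.

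Cyp2c40 and Cyp2c69, genes known for higher expression in female mice, moved the other way in these male livers. Cyp2c69 (chromosome 19, 39842814 to 39886799) was at 0.211, 0.33 and 0.659 TPM in the control livers and at 2.21, 3.22 and 1.77 TPM in the Fgf18 ΔHSC livers, a log2 difference of 2.38 ± 0.35 (SE, limma adjusted p = 0.000449) and a mean 6.0-fold higher. Cyp2c40 (chromosome 19, 39767071 to 39812814) was at 1.82, 1.65 and 2.89 TPM against 4.12, 9.32 and 4.07 TPM, a log2 difference of 1.35 ± 0.34 (SE, limma adjusted p = 0.00583). Fgf18 ΔHSC liver 2 was highest in both genes, and without it the difference of Cyp2c40 was 0.96, inside the limit. The nearest P450 coding sequence to Cyp2c69 is that of Cyp2c67 at 97.7%, and to Cyp2c40 that of Cyp2c68 at 92.6%, so reads may be shared with genes not analysed here. Of 11 P450 genes known for higher expression in female liver, 3 were listed, Cyp2c40 and Cyp2c69 higher and Cyp2a4 lower, and of 4 known for higher expression in male liver Cyp2d9 alone was listed, lower.

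The promoters of these 5 Cyp2c genes are shown because neighbours in one cluster differed in direction. Each line gives the 150 bases before the annotated start, 5′ to 3′, from RefSeq (GRCm38.p6), with CAAAGT in capitals. The RefSeq start of Cyp2c29 lies far inside its GENCODE span (39269405 to 39330713). That of Cyp2c69 lies just inside its span, so the annotations differ on these starts.
Cyp2c29 (chr19:39286935-39287084, plus strand): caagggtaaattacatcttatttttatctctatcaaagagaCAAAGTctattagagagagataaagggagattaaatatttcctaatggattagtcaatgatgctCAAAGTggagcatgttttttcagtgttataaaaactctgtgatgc
Cyp2c38 (chr19:39463076-39463225, minus strand): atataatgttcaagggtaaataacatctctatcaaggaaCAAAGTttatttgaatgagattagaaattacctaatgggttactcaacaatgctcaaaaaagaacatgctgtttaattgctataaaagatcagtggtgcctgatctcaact
Cyp2c39 (chr19:39510672-39510821, plus strand): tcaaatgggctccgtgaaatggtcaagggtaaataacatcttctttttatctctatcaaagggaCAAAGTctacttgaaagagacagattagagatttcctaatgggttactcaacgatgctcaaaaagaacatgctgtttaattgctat
Cyp2c40 (chr19:39812815-39812964, minus strand): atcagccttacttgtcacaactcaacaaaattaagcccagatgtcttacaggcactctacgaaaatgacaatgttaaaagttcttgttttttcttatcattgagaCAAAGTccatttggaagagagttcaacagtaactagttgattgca
Cyp2c69 (chr19:39886770-39886919, minus strand): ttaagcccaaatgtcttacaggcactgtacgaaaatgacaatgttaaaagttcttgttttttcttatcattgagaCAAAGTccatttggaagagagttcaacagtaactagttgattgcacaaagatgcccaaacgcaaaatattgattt
Over windows of 300 bases the promoters of Cyp2c40 and Cyp2c69 were 98.9% identical where they aligned (267 of 270 bases, with the starts offset), and their shared run CAAAGTcca begins 45 and 75 bases before the start. Among Cyp2c29, Cyp2c38 and Cyp2c39 the identity was 80.5 to 88.2%, and between these and the higher pair it was 71.6 to 76.4%.

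The search for motifs covered 300 bases around each start, both strands, in the 22 of 29 P450 genes with an entry and in 32851 promoters in all. The motifs and windows were chosen after the sequences had been seen. CAAAGT was found in 15 of the 22 P450 promoters and in 14.4% of all promoters, and the longer CAAAGTCCA, which contains it, in 3 of the 22 (Cyp3a11, Cyp2c40 and Cyp2c69) and in 0.475% of all. TATAAA was found in 13 of the 22 and in 13.6% of all. These counts include near-identical promoters, Cyp2a4 with Cyp2a5 (98.3%) and Cyp2c40 with Cyp2c69 (98.9%), which are not independent matches. The D-box TTATGTAA occurred in 0.938% of all promoters and in 0 of the 22, the antioxidant response element core TGACNNNGC in 12.4% and in 1 (Cyp4f18), and the Ah receptor element core TNGCGTG in 5.07% and in 0. All 5 Cyp2c promoters printed above, of lower and of higher genes, hold CAAAGT. The P450 genes without an entry were Cyp2u1, Cyp7a1, Cyp39a1, Cyp11b1, Cyp2d22, Cyp2c44 and Cyp2d12.

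The 4 listed Cyp2d genes, drug and steroid oxidising enzymes, were all lower. Cyp2d9, a testosterone hydroxylase with higher expression in males (chromosome 15, 82433437 to 82456845), stood at 697, 773 and 755 TPM against 299, 324 and 276 TPM, a log2 difference of -1.31 ± 0.11 (SE, limma adjusted p = 3.94e-05). Cyp2d12 was at 3.56, 3.34 and 3.30 TPM in the control livers and at 0.627, 1.09 and 0.626 TPM in the Fgf18 ΔHSC livers, a larger log2 difference of -2.03 ± 0.22 (SE, limma adjusted p = 0.000104). The coding sequences of both are over 90% identical to a neighbour, Cyp2d9 93.3% to Cyp2d11 and Cyp2d12 92.1% to Cyp2d9, so their reads may be partly shared. Cyp2d11 was at 2.63, 2.68 and 2.20 TPM against 1.15, 1.65 and 0.89 TPM. It is 94.7% identical in coding sequence to Cyp2d10, not analysed here, so reads may be shared there too. The log2 difference of Cyp2d11, -1.0, and that of Cyp2d22, -1.01, lay at the limit of 1. The call of Cyp2d22 was lost without control liver 1 (-0.98) and without Fgf18 ΔHSC liver 3 (-0.95). That of Cyp2d11 was lost without control liver 1 or 2 (-0.97 and -0.95) and without Fgf18 ΔHSC liver 1 or 3 (-0.98 and -0.81).

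All 3 listed genes of family 3 were called lower. Cyp3a11, the main drug-metabolising P450 of mouse liver and a target of the pregnane X receptor (chromosome 5, 145854426 to 145879964), stood at 815, 812 and 644 TPM in the control livers and at 256, 321 and 241 TPM in the Fgf18 ΔHSC livers. The log2 difference was -1.47 ± 0.15 (SE, limma adjusted p = 8.29e-05). The coding sequence of Cyp3a11 is 95.2% identical to that of Cyp3a41a, not analysed here, so reads may be shared. Cyp3a25 was at 185, 188 and 195 TPM against 76.3, 79.7 and 71.4 TPM, with the smallest spread within the groups of the 3 genes (log2 difference -1.32 ± 0.10, SE, limma adjusted p = 2.35e-05). Cyp3a59, whose coding sequence is 97.5% identical to that of Cyp3a25, was at 9.83, 8.81 and 7.88 TPM against 3.28, 4.45 and 2.27 TPM, a log2 difference of -1.43 ± 0.23 (SE, limma adjusted p = 0.00069).

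The other listed genes of the xenobiotic families were scarce and higher. Cyp1a1, the classical target of the Ah receptor, was at 0.268, 0.193 and 0.0398 TPM in the control livers and at 0.553, 0.352 and 0.345 TPM in the Fgf18 ΔHSC livers, from 20, 12 and 2 reads against 32, 15 and 19. Its log2 difference of 1.04 ± 0.37 (SE, limma adjusted p = 0.0244) was 0.63 without control liver 3 (adjusted p = 0.0582) and 0.86 without Fgf18 ΔHSC liver 1 (adjusted p = 0.0849), the only P450 gene whose adjusted p left the threshold when a liver was left out. Cyp1b1 was at 0.16, 0.122 and 0.173 TPM against 0.442, 0.383 and 0.345 TPM, and its log2 difference of 0.96 ± 0.20 (SE, limma adjusted p = 0.00218) did not reach the limit of 1, which it passed at 1.02 without control liver 3 and at 1.03 without Fgf18 ΔHSC liver 3. Cyp2u1, a fatty acid hydroxylase (chromosome 3, 131288441 to 131303227), was at 1.49, 1.78 and 1.72 TPM against 5.44, 3.51 and 2.80 TPM (log2 difference 1.14 ± 0.24, SE, limma adjusted p = 0.00234), and at 0.88 without Fgf18 ΔHSC liver 1.

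**Figure D2:**
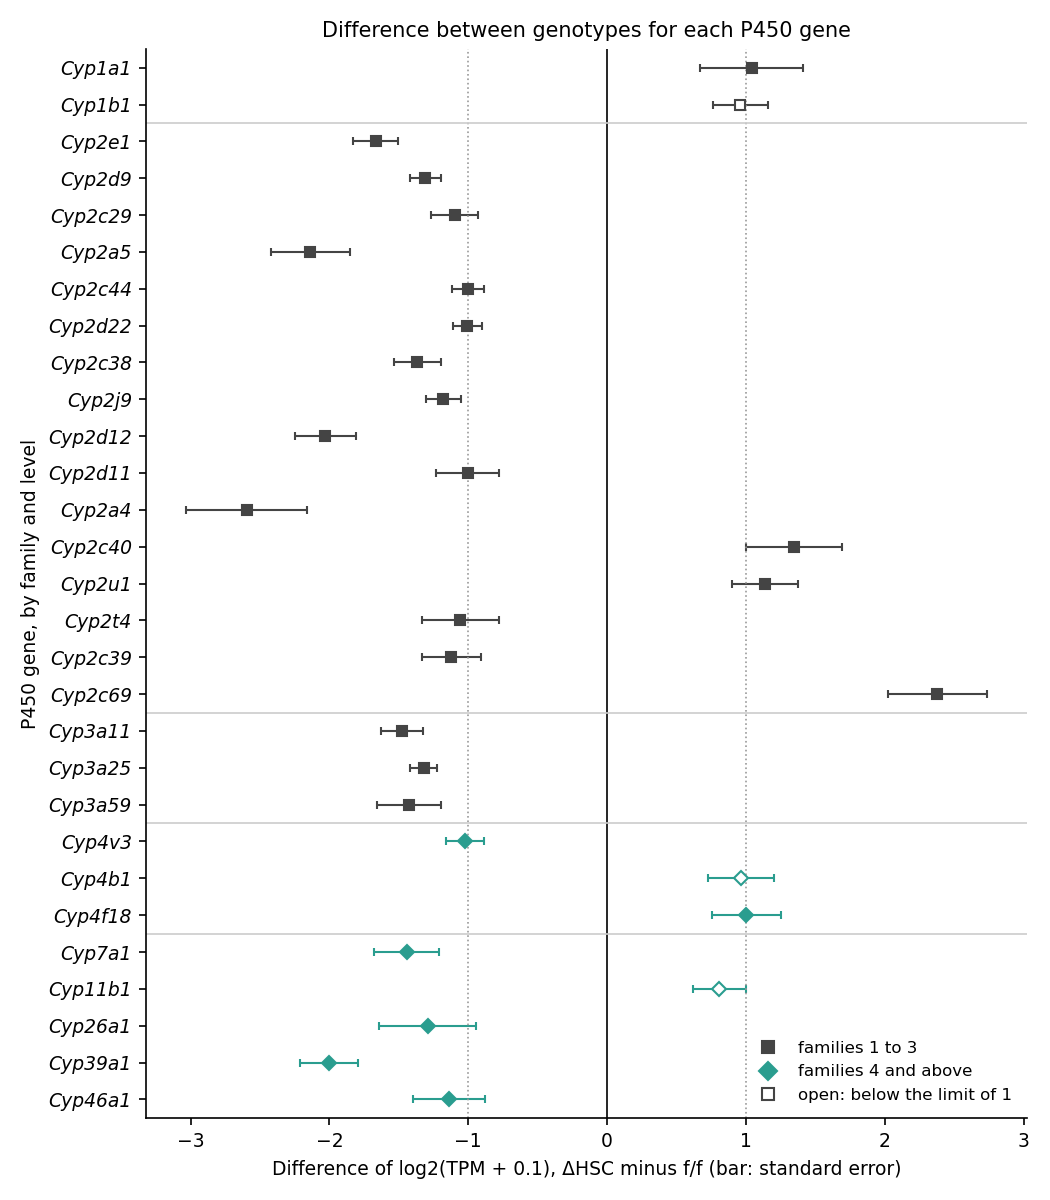
Difference of log2(TPM + 0.1) between the 3 Fgf18 ΔHSC and the 3 control livers for each P450 gene, with the limma standard error as bar, squares for families 1 to 3, diamonds for family 4 and above, open marks for genes below the limit, and dotted lines at 1 and -1. The points run from -2.60 for Cyp2a4 to 2.38 for Cyp2c69, and 21 of the 29 lie left of 0.

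In family 4, whose enzymes hydroxylate fatty acids and eicosanoids, 1 listed gene was lower and 2 were higher. Cyp4v3 (chromosome 8, 45304944 to 45333216) was the abundant listed member. It stood at 100.1, 101.5 and 94.9 TPM in the control livers and at 49.8, 56.9 and 40.7 TPM in the Fgf18 ΔHSC livers. Its log2 difference was -1.02 ± 0.14 (SE, limma adjusted p = 0.000264), and -0.89 without Fgf18 ΔHSC liver 3. Cyp4f18, a leukotriene hydroxylase of myeloid cells, was at 0.403, 0.411 and 0.449 TPM against 0.884, 0.706 and 1.34 TPM, a log2 difference of 1.0 ± 0.25 (SE, limma adjusted p = 0.0049). That call was lost without control liver 1 (0.98) or 2 (0.99) and without Fgf18 ΔHSC liver 3 (0.77), the liver with the highest value. Cyp4b1 was at 1.39, 1.07 and 1.62 TPM against 2.01, 3.48 and 2.89 TPM, and its log2 difference of 0.97 ± 0.24 (SE, limma adjusted p = 0.00495) stayed inside the limit, which it passed at 1.09 without control liver 3 and at 1.18 without Fgf18 ΔHSC liver 1.

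The 3 listed genes of bile acid and cholesterol hydroxylation were lower. Cyp7a1, the rate-limiting enzyme of the classical pathway of bile acid synthesis (chromosome 4, 6265612 to 6275633), stood at 13, 11.2 and 20.1 TPM in the control livers and at 5.74, 4.09 and 5.96 TPM in the Fgf18 ΔHSC livers. The log2 difference was -1.44 ± 0.24 (SE, limma adjusted p = 0.000735). Cyp39a1, an oxysterol hydroxylase of the alternative pathway (chromosome 17, 43667425 to 43751431), differed more, from 18.0, 15.4 and 11.9 TPM to 4.36, 2.83 and 3.94 TPM, a log2 difference of -2.0 ± 0.21 (SE, limma adjusted p = 8.33e-05). Cyp46a1, a cholesterol hydroxylase known mostly from neurons, was at 0.901 ± 0.167 TPM against 0.36 ± 0.113 TPM (SD, n = 3 and 3), and its log2 difference of -1.14 was -0.92 without Fgf18 ΔHSC liver 3.

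Cyp26a1, which breaks down retinoic acid, was at 4.15, 3.97 and 2.85 TPM in the control livers and at 1.93, 0.738 and 1.94 TPM in the Fgf18 ΔHSC livers. The log2 difference of -1.29 ± 0.35 (SE, limma adjusted p = 0.00749) was -0.87 without Fgf18 ΔHSC liver 2, the lowest of its group. Cyp11b1, an enzyme of corticosteroid synthesis in the adrenal cortex, had 0 reads in each control liver and 3, 3 and 8 reads (0.0457, 0.062 and 0.128 TPM) in the Fgf18 ΔHSC livers. Set against a floor of 3 reads in each control liver, its mean level in the Fgf18 ΔHSC livers was 1.80 times the floor. The Fgf18 ΔHSC livers with 3 reads stood at that same count, so the ratio rests largely on the liver with 8 reads. The fitted difference of 0.81 for Cyp11b1 depends on the pseudocount.

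The direction followed how abundant a transcript was, among the P450 genes and among all listed genes. All 10 P450 genes that averaged 10 TPM or more over the 6 livers were lower, as were 85.4% of the 467 listed genes at that level. Between 1 and 10 TPM 8 of 12 P450 genes were lower, against 49.2% of the listed genes, and under 1 TPM 3 of 7 were lower, against 14.0%. The highest mean in the control livers of any P450 gene that was higher in the Fgf18 ΔHSC livers was 2.12 TPM, for Cyp2c40. The median level in the control livers was 14.8 TPM for the 21 lower genes and 0.41 TPM for the 8 higher ones.

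**Figure D3:**
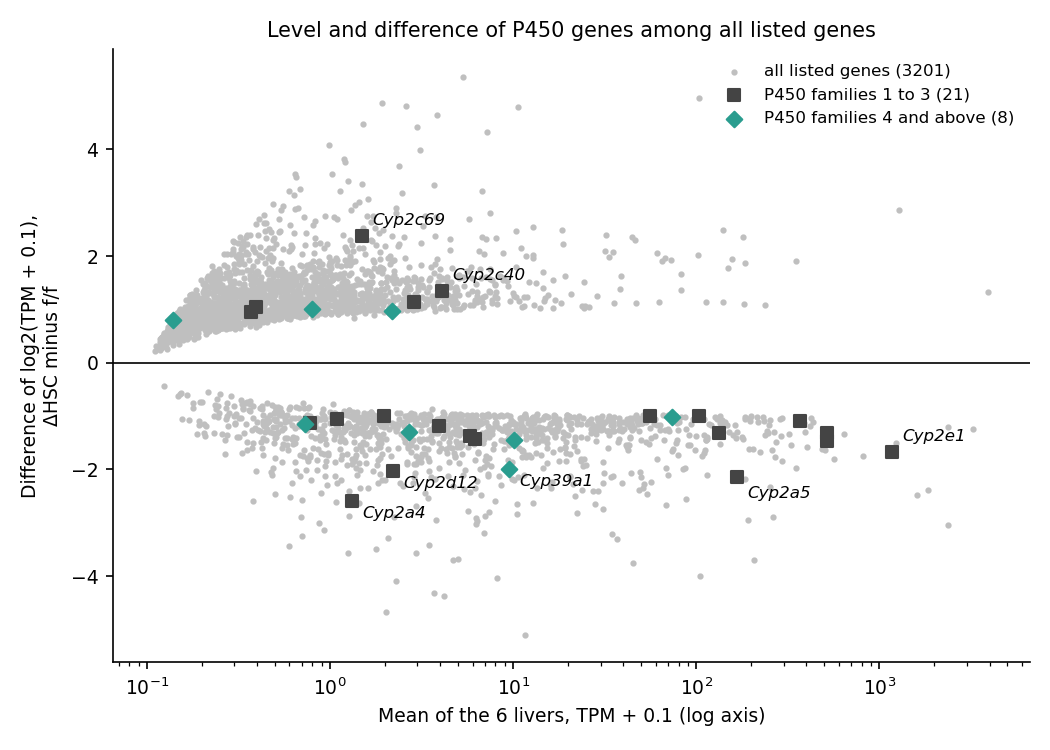
Mean TPM + 0.1 of the 6 livers (log axis) against the difference of log2(TPM + 0.1), Fgf18 ΔHSC minus control, for the 3201 listed genes in grey and the 29 P450 genes as squares (families 1 to 3) and diamonds (family 4 and above). The gap around 0 comes from the selection of the table, and the 10 P450 genes at 10 TPM or more all lie below 0.

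The spread within a group was moderate for most P450 genes. Their median coefficient of variation was 16.3% in the control livers and 21.3% in the Fgf18 ΔHSC livers, beside 20.1% and 21.7% over all listed genes. Among the Fgf18 ΔHSC livers, liver 2 had the highest value of its group in 17 of the 29 P450 genes (58.6%) and in 28.4% of all listed genes. It was highest in 14 of the 21 lower genes, Cyp2e1, Cyp2a5 and Cyp3a11 among them, and so lay nearest to the control livers in these genes. Across all listed genes the log2 values of any pair of livers of the same group correlated at 0.971 or more, and those of livers of different groups at 0.87 to 0.899, a description of genes selected for this difference.

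Along the chromosomes, the listed genes of 3 of the 4 clusters examined were all lower. The Cyp2d cluster on chromosome 15 had 4 of its 8 annotated genes listed, the Cyp3a genes on chromosome 5 had 3 of 9, and the cluster of Cyp2a, Cyp2b, Cyp2f, Cyp2g, Cyp2s and Cyp2t genes on chromosome 7 had 3 of 13. The Cyp2c genes on chromosome 19 had 6 of 15 listed, and in chromosome order Cyp2c29, Cyp2c38 and Cyp2c39 lay together and were lower, followed by Cyp2c67 and Cyp2c68, which were not analysed here, and then by Cyp2c40 and Cyp2c69, which were higher. In all, 12 of the 29 P450 genes are at least 90% identical in coding sequence to another P450 gene, and for these the way reads of near-identical copies were counted could move the values.

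**Figure D4:**
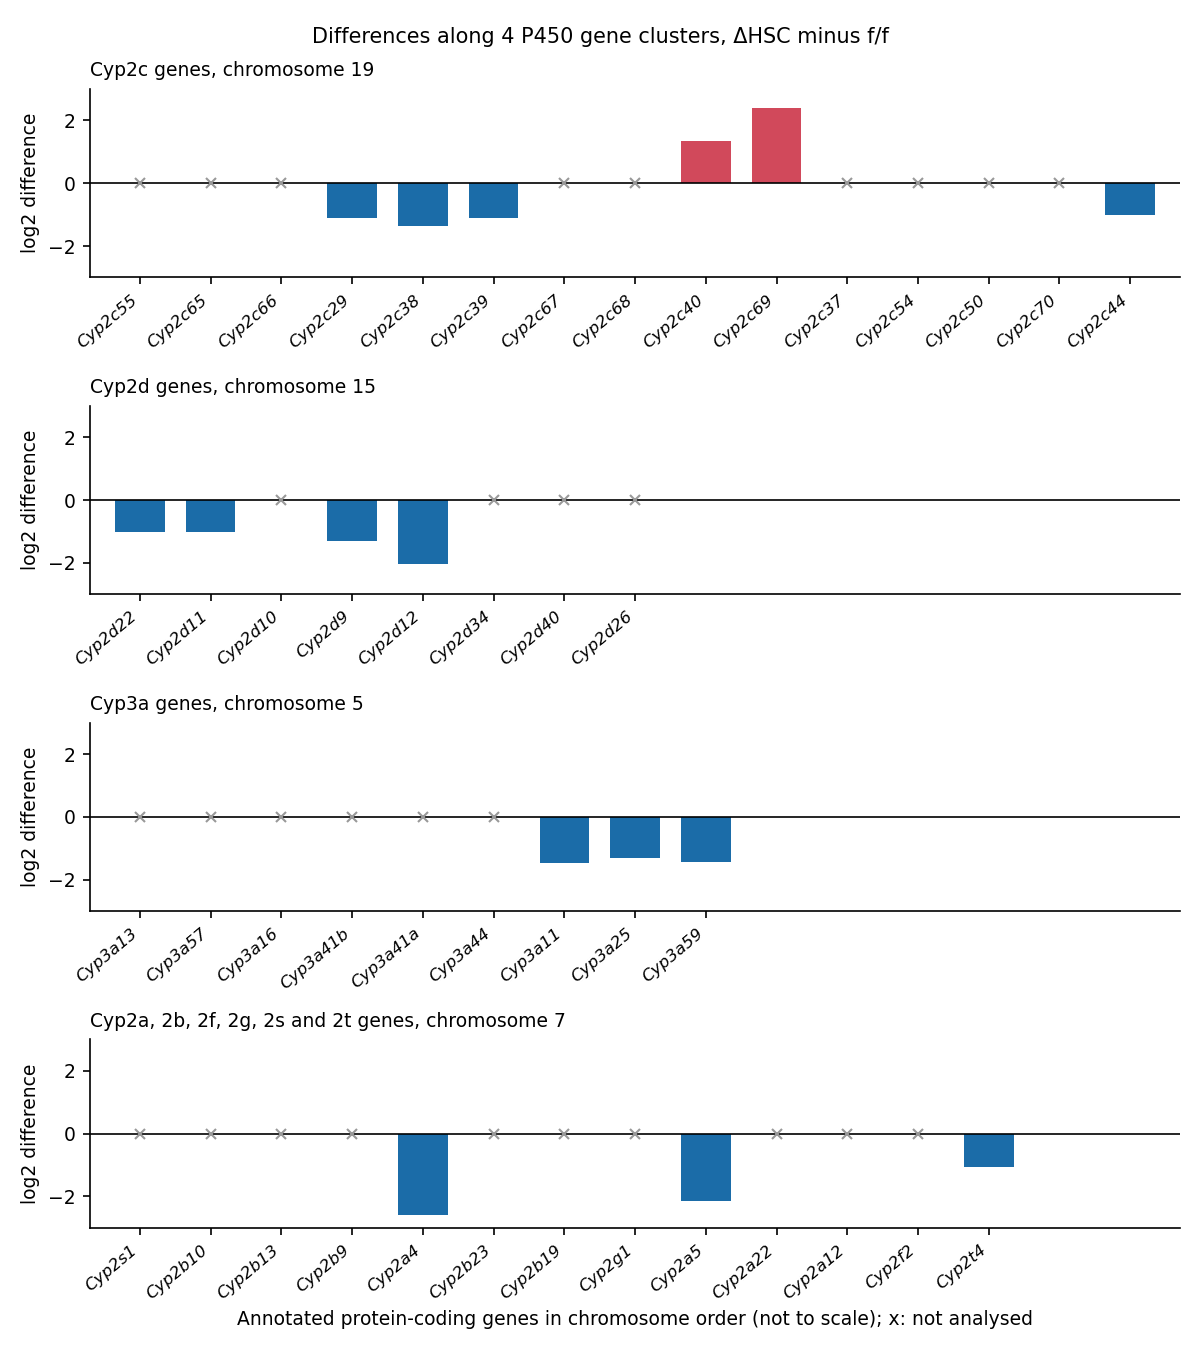
Difference of log2(TPM + 0.1), Fgf18 ΔHSC minus control, for the annotated protein-coding genes of 4 P450 clusters in chromosome order, with bars below 0 in blue, bars above 0 in red and a cross for genes not analysed here. Cyp2c40 and Cyp2c69 are the only bars above 0.

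Genes that serve P450 enzymes were lower as well where they were listed, in lists written with earlier results of these data known. Of 7 redox partner genes 3 were listed and all 3 were called lower. They lie at 10 TPM or more on average, as do the 2 listed heme genes, and at that level 80.3% of the listed genes were called lower. Por, the reductase that passes electrons to the microsomal P450 enzymes, stood at 150.2, 150.5 and 131 TPM in the control livers and at 51.6, 60.02 and 55.4 TPM in the Fgf18 ΔHSC livers, a log2 difference of -1.37 ± 0.11 (SE, limma adjusted p = 3.49e-05). Pgrmc1, a heme-binding partner of P450 enzymes, and Fdx1, the mitochondrial ferredoxin, fell as well, with log2 differences of -1.12 and -1.02. Of 10 genes of heme synthesis and breakdown 2 were listed, both lower. Alas1, the rate-limiting enzyme of heme synthesis in liver, was at 119, 118 and 118 TPM against 18.8, 18.9 and 17.7 TPM, a log2 difference of -2.68 ± 0.09 (SE, limma adjusted p = 4.73e-06). Blvrb, a biliverdin reductase, fell by 1.31 on the log2 scale.

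Of 36 nuclear receptors and other regulators of P450 genes 12 were listed, with 8 called lower, 1 called higher and 3 (Cebpa, Esrra and Stat5a, at -0.99, -0.99 and -0.98) just inside the limit. Of the 12, 5 average 10 TPM or more and 7 average 1 to 10 TPM, where 43.2% of the listed genes were called lower and 47.4% higher. Nr0b2, the repressor SHP that lowers transcription of Cyp7a1, was the one that rose, from 1.19, 1.82 and 2.21 TPM to 16.8, 8.56 and 13.4 TPM, a log2 difference of 2.81 ± 0.29 (SE, limma adjusted p = 8.27e-05). Dbp and Tef, clock-controlled activators that bind D-boxes, fell, with log2 differences of -2.80 ± 0.13 and -2.02 ± 0.12 (SE, limma adjusted p = 7.49e-06 and 1.61e-05). Nr1i3, the drug-sensing receptor CAR, went from 22.8, 22.5 and 26.2 TPM to 7.35, 5.37 and 6.53 TPM, a log2 difference of -1.88 ± 0.14 (SE, limma adjusted p = 2.69e-05). Of 19 genes of bile acid synthesis and transport other than P450 genes 8 were listed, 6 called lower, 2 not called and none higher, 6 of the 8 at 10 TPM or more, with the largest differences in the uptake carriers Slco1a4 (-1.67) and Slco1b2 (-1.54) and in the reductase Akr1d1 (-1.55).

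**Figure D5:**
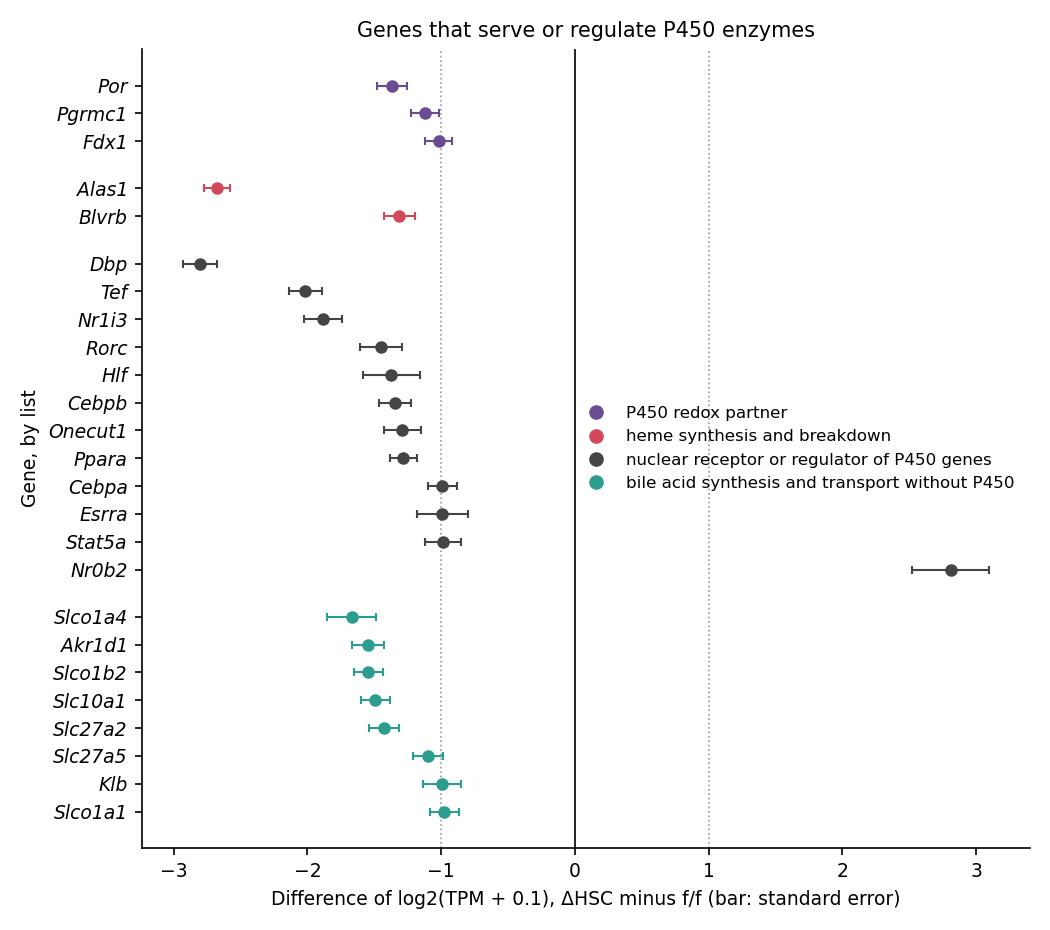
Difference of log2(TPM + 0.1), Fgf18 ΔHSC minus control, with its limma standard error as bar, for the listed redox partners, heme genes, regulators and bile acid genes, 3 livers a group, with dotted lines at 1 and -1. Nr0b2 at 2.81 is the only point right of 0, and Dbp at -2.80 and Alas1 at -2.68 lie farthest to the left.

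The listed markers of cell types moved in both directions. None of the 14 general hepatocyte markers was among the listed genes. Of 19 genes of hepatocytes around the central vein 7 were listed, 5 of them P450 genes, and all 7 were called lower. Of 15 genes of hepatocytes around the portal vein 4 were listed and all 4 were called lower, led by Etnppl, Pck1 and Hsd17b13 with log2 differences of -2.23, -1.64 and -1.31. The listed pericentral genes summed to 3657 to 3707 TPM in the control livers and to 1132 to 1515 TPM in the Fgf18 ΔHSC livers. That sum is mostly made of the P450 transcripts already described. Outside the P450 genes, Glul averaged 345 TPM in the control and 142 TPM in the Fgf18 ΔHSC livers, and Slc1a2 7.29 and 3.49 TPM. The periportal genes summed to 616 to 707 and 194 to 245 TPM. Of these 7 and 4 genes, 6 and 4 average 10 TPM or more, the level at which 80.3% of the listed genes were called lower.

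Most listed markers of other cells were higher, beside 41.6% of all listed genes called higher. Of 15 stellate cell markers 11 were listed, 9 called higher and none lower (10.1 to 13.5 TPM in sum against 27.0 to 39.1 TPM), of 14 Kupffer cell and macrophage markers 6 were listed and 5 called higher (19.3 to 22.4 against 50.8 to 77.2 TPM), and of 10 sinusoidal endothelial markers 4 were listed, all called higher (18.9 to 20.7 against 41.4 to 58.9 TPM). The 11 listed stellate markers average under 1 TPM (6 genes) or 1 to 10 TPM (5 genes), where 86.0% and 50.8% of the listed genes were higher and 45.6% and 47.4% were called higher. Of 7 cholangiocyte markers 5 were listed, with 1 called lower and 2 higher (28.1 to 30.5 against 50.2 to 76.8 TPM). The rise of that sum was mostly Spp1, with group means of 13.3 and 53.0 TPM, while Sox9 fell from 14.6 to 7.04 TPM. Of 6 erythroid markers 4 globin genes were listed, all called higher (70.9 to 116 against 396 to 539 TPM). Neutrophil markers went both ways, with 6 of 12 listed, 4 lower (Lcn2, and the granule genes Ngp, Camp and Ltf with log2 differences of -3.68, -3.0 and -2.57) and 2 higher (418 to 514 against 123 to 159 TPM in sum, mostly Lcn2). The largest called log2 differences were those of Acta2, Pdgfrb and Hand2 among stellate markers (1.92, 1.89 and 1.84), of Ccr2, Cd68 and Lyz2 among macrophage markers (1.90, 1.80 and 1.62) and of Pecam1, Gpr182 and Cdh5 among endothelial markers (1.79, 1.71 and 1.24). Spp1, Epcam and Sox9 led the cholangiocyte list (1.98, 1.29 and -1.04) and Hba-a1, Hbb-bs and Hbb-bt the erythroid list (2.36, 2.36 and 2.23). No listed marker was at 0 in any liver. The part of cell make-up in the P450 differences was not tested.

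The higher calls depended on scale. When each liver was rescaled by its median ratio over the listed genes, the log2 differences shifted by a median of -0.87, and 1112 listed genes were called lower and 252 higher, against 961 and 1333 on the deposited scale. The 21 lower P450 genes were still called, while of the higher ones Cyp2c69 alone was, at 1.48, and Cyp4b1 was at -0.01. The median P450 difference went from -1.12 to -2.05, beside that shift of -0.87. The ratios used in the rescaling come from genes selected for a difference, and the listed genes held 7.14 to 7.93% of all TPM in the control livers and 3.89 to 3.99% in the Fgf18 ΔHSC livers.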

How the data were processed

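RNA-seq of 6 livers was analysed, 3 of Fgf18 f/f mice (labelled IR) and 3 of Fgf18 ΔHSC mice (labelled 18KO). The study's text does not state which lobe was sequenced. The authors prepared stranded mRNA libraries, trimmed reads with cutadapt 2.5, aligned them to GRCm38/mm10 with HISAT2 2.1.0, counted them per gene with featureCounts 1.6.3 and compared the groups with DESeq2. The deposited table holds 1 TPM value per gene and liver. Its unit is not named, and TPM was inferred because value times joined exon length (GENCODE M21) gave whole reads, within 0.02 reads, for 92.2 to 92.6% of values under 5000 reads. Library totals were unknown, so no intervals were given, and 1 read on 1 kb was worth 0.0374 to 0.0655 TPM. The deposited columns of the authors' comparison, a log2 fold change, a p-value and an adjusted p-value, were not used for any result beyond seeing that they define the list of 3201 genes.

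limma 3.58.1 in R 4.3.3 (lmFit, eBayes with trend) was fitted to log2(TPM + 0.1) over the 3201 genes, without a block or filter, and tested on simulated data. Sequences were compared with Biopython 1.88 in Python 3.11.15. Reads recovered as whole numbers in all livers were available for 21 of the 29 P450 genes and were used in 1 alternative, limma-voom. Members and gene lists were chosen with earlier results of these data known. Every P450 gene is named, with values in each liver for every higher gene, the 3 largest differences and the most abundant gene of families 1, 2, 3, 4 and above 4, and close copies. From every other list the up to 3 called genes with the largest differences are named. Values of Cyp2c29 in each liver, and Nr1i3, Cebpa, Esrra, Stat5a, Lcn2, Glul and Slc1a2, lie outside this rule and were chosen after their values were seen. The replicate number 1 to 3 occurs in both groups. Alternatives were other pseudocounts, a filter on low values, rescaled livers, no trend, a replicate block, no limit on the difference and each liver left out. Positions are from the GENCODE annotation and promoters from RefSeq, both GRCm38.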

Additional observations from a re-analysis of the deposited data

How the results depend on the processing

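The 21 lower P450 calls held with rescaled livers, a pseudocount of 0.01, no mean-variance trend and no limit on the difference. Rescaling shifted the log2 differences by a median of -0.87, a smaller pseudocount enlarges those of low genes, and dropping the limit relaxes the rule. Such changes can hardly lose a lower call. With a pseudocount of 1, 13 were called lower and 2 higher (10 and 2 in the xenobiotic families, 3 and 0 in the endogenous families, 566 and 266 of all listed genes), and the medians were -0.99 for the P450 genes, -0.99 and -0.69 for the xenobiotic and endogenous families and 0.18 for all listed genes. A larger pseudocount shrinks the differences of low genes by construction. With a pseudocount of 0.01, 8 P450 genes were called higher (3 in the endogenous families), with medians of -1.18 in the endogenous families and 1.24 over all listed genes. Among genes that averaged 1 TPM or more, 18 of the P450 genes were called lower and 3 higher (0 in the endogenous families), 522 listed genes were called higher, and the medians were -1.30 for the P450 genes, -1.31 and -1.29 for both classes and -1.05 for all listed genes, a reversal that follows from the removal of low genes, which were mostly higher. With rescaled livers 1 P450 gene was called higher (1 in the xenobiotic and 0 in the endogenous families), 252 listed genes were called higher, the medians were -2.05, -2.13, -2.02 and 0.19 in the same order, and Cyp4b1 reversed to -0.013. Without a limit on the difference 8 P450 genes (3 in the endogenous families) and 2005 listed genes were called higher. limma-voom on the 21 P450 genes with whole reads lost no call and added Cyp4b1 and Cyp11b1.

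Leaving out 1 liver at a time gave 16 to 21 lower and 4 to 6 higher P450 calls, 12 to 16 and 2 to 5 in the xenobiotic families, 3 to 5 and 0 to 2 in the endogenous families, and 907 to 975 and 1204 to 1377 among all listed genes. The medians ranged from -1.19 to -1.05 for the P450 genes, from -1.24 to -1.05 and from -1.14 to -0.91 for the xenobiotic and endogenous families and from 0.78 to 0.89 for all listed genes.

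The replicate numbers were not treated as pairs, since the deviations of same-numbered livers correlated at only 0.057, 0.006 and 0.031. With the replicate number as a block the P450 calls were the same 21 lower and 5 higher (29 of 29 genes unchanged), with 963 and 1337 listed genes called.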

Other observations

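The table also holds 4 P450 pseudogenes, which the rule on protein-coding genes leaves out. Cyp2a21-ps was lower, at 1.73, 2.14 and 2.42 TPM in the control livers and at 0.426, 0.623 and 0.344 TPM in the Fgf18 ΔHSC livers, a log2 difference of -1.98 ± 0.24 (SE, limma adjusted p = 0.000154). The other 3 were higher, Cyp2c53-ps with a log2 difference of 1.51, Cyp21a2-ps with 1.02 and Cyp4f41-ps with 1.59. Cyp4f41-ps was at 0.0347, 0 and 0 TPM in the control livers and at 0.179, 0.243 and 0.282 TPM in the Fgf18 ΔHSC livers. Cyp2c53-ps (chromosome 19, 39229254 to 39274985) overlaps the GENCODE span of Cyp2c29, but ends before the RefSeq start of that gene. Cyp2c29 was lower, as were 4 of the 6 listed Cyp2c genes.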
